A study of Homo sapiens with 3 samples.

Results

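10 genes of the transforming growth factor-β (TGF-β) family were followed in xenograft tumors treated with CDK2i or EZH2i: the ligand genes TGFB1, TGFB2, INHBA, BMP2, BMP4 and BMP7, and the target genes ID1, ID2, ID3 and SMAD7. The 10 genes were taken by name from the 29689 gene symbols of the expression table, and each had a value in every library. The tumors came from SUM-149, an established human triple-negative breast cancer (TNBC) cell line, grown with Matrigel in the mammary fat pad of female Nu/Nu mice, whose age is not given in the sources used here. Nude mice lack a thymus and most T cells, but keep their own fibroblasts, blood vessels and myeloid cells, so a tumor holds mouse as well as human cells. One library was made for each of 3 conditions: a vehicle-treated (mock) tumor, a tumor treated with the CDK2 inhibitor dinaciclib (CDK2i), and one treated with the EZH2 inhibitor that the labels call EPZ6438 (EZH2i). The inhibitors were given over 10 days. CDK2 is a kinase that drives cells into DNA replication, and dinaciclib also inhibits other CDKs. EZH2 is the Polycomb enzyme that places repressive methyl marks on histone H3. For tumor growth experiments on the same cell line the study names another EZH2 inhibitor, GSK343, so the identity of the EZH2i rests on the label. Whether 1 library held 1 tumor or a pool is not stated. Since each condition had 1 library, nothing below rests on replicates or carries a p-value.

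TGF-β, activin and bone morphogenetic protein (BMP) ligands are secreted dimers that bring type I and type II receptor kinases together. The receptors phosphorylate SMAD proteins, SMAD2 and SMAD3 for TGF-β and activin and SMAD1, SMAD5 and SMAD9 for BMPs, which join SMAD4 and enter the nucleus. The ID genes are classic BMP targets in epithelial cells, and their proteins bind bHLH transcription factors of the E protein group and keep them off DNA. SMAD7 is induced by the pathway and shuts it off at the receptor. In breast epithelium TGF-β is known both for restraining proliferation and for promoting invasion of advanced tumors.

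Levels are given in FPKM, fragments scaled to gene length and library size, or as log2 FPKM as deposited, and a change is the difference in log2 FPKM from the vehicle tumor. To rise or fall, a gene had to differ more than 2-fold, which is a log2 change of 1, and to exceed log2 FPKM 3, or 8 FPKM, in at least 1 tumor of the pair. The steps between the lowest FPKM values placed the depth near 16780000 fragments for vehicle, 19110000 for CDK2i and 17520000 for EZH2i. From these depths and annotated exon lengths each gene's fragments were estimated, and the 95% intervals given with changes are exact binomial intervals for counting error only. Over 11109 expressed genes, those averaging more than log2 FPKM 1 and detected in each library, changes had a median of -0.11 (CDK2i) and 0.19 (EZH2i). All 9 epithelial markers on a list of 9 were above log2 FPKM 1 in each tumor, with summed levels of 6410, 13270 and 5432 FPKM in the vehicle, CDK2i and EZH2i tumors. Reads from mouse cells may align to conserved human genes, and a step removing them is not given in the sources used here. The 8 fibroblast markers summed to 25.04, 39.2 and 31.1 FPKM, led by COL1A1, with none at 0. They did not share a direction in CDK2i, where COL1A1 and LUM changed by 0.95 and 1.02 and COL3A1 and DCN by -1.44 and -0.70. The 6 endothelial markers analysed here stayed below log2 FPKM 1 and summed to 1.01, 0.791 and 0.945 FPKM, with ESAM listed at 0 in CDK2i. The 7 macrophage markers analysed here summed to 11.5, 11.1 and 5.30 FPKM, led by CD14 and ITGAM, with 1, 2 and 4 of them listed at 0, CD68 among them in both treated tumors. CD68 was at 0.0318 FPKM in vehicle, so its 0 is not read as a loss. CD14, at 8.02 FPKM in vehicle, changed by -1.35 in EZH2i. That change was -0.89 with the trend in GC content and transcript length described below removed. In bulk tumors, fewer cells of a type and less RNA per cell cannot be told apart.

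In the CDK2i tumor ID1 rose and BMP4 fell past both thresholds. In the EZH2i tumor TGFB2 and BMP2 rose and ID2 fell. Of the 9 genes that reached the expression minimum in a pair, 1 was thus higher and 1 lower in CDK2i, against 3.27% higher and 8.07% lower of all 6632 genes that reached it. In EZH2i 2 of 9 were higher and 1 was lower, against 8.93% and 4.42% of 7414 genes. BMP7 stayed below the minimum in all 3 tumors. No gene of the 10 passed both thresholds in both treated tumors. The share of all genes that did so was not computed, so this is not read as a trait of the 10 genes. Compared with each other directly, the treated tumors differed past both thresholds in 5 of the 9 genes. TGFB2, BMP2 and BMP4 were higher and ID1 and ID2 lower in EZH2i than in CDK2i, where 17.5% and 6.53% of 7394 genes were higher and lower. With the trend in GC content and transcript length described below removed, the log2 differences of EZH2i minus CDK2i were 1.66 for TGFB2, 1.19 for BMP2, 2.34 for BMP4, -2.18 for ID1 and -2.50 for ID2, all still past the fold threshold. Over the 9 genes the median log2 change was 0.10 (CDK2i) and 0.21 (EZH2i). Shares and medians of so few genes are a description, and each gene is given on its own below.

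**Figure D1:**
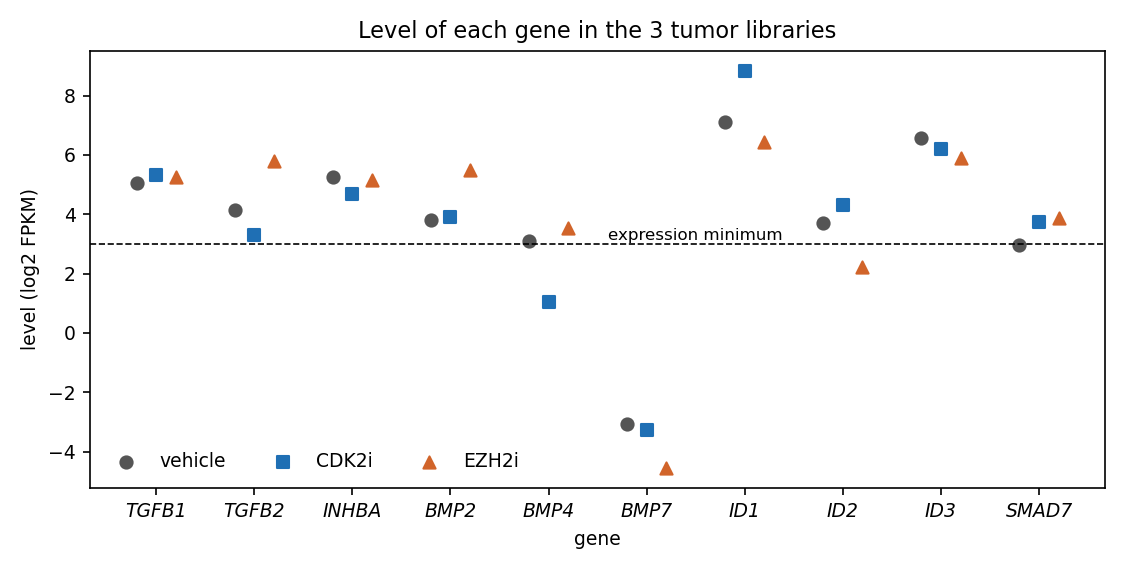
Level in log2 FPKM (vertical axis) of the 10 genes (horizontal axis) in the vehicle, CDK2i and EZH2i libraries, 1 point per library, with the expression minimum of log2 FPKM 3 as a dashed line. ID1 stands at 7.12, 8.84 and 6.42, and BMP7 lies below -3 in each library.

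TGFB1 encodes TGF-β1, the most widely expressed TGF-β ligand. It was at 33.2, 39.7 and 38.5 FPKM in the vehicle, CDK2i and EZH2i tumors. The log2 change was 0.26 (counting interval 0.17 to 0.34) for CDK2i and 0.21 (0.12 to 0.30) for EZH2i. The treated tumors differed by -0.04 in TGFB1 (-0.13 to 0.04), an interval that holds 0. TGFB1 lies on chromosome 19 of GRCh37 from 41807492 to 41859827, where the protein-coding gene HNRNPUL1 overlaps it on the opposite strand at 50.4, 66.4 and 57.8 FPKM. CCDC97 (13.2, 7.85 and 11.7 FPKM) and TMEM91 (4.46, 1.64 and 2.63 FPKM), also protein-coding, overlap it on that strand too. The counting is not stated to use strand, so reads of a shared stretch could have been counted for either gene.

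TGFB2 encodes TGF-β2, a ligand whose binding to the type II receptor depends on a co-receptor. It was at 17.5, 9.86 and 55.4 FPKM in the vehicle, CDK2i and EZH2i tumors, so that the treated tumors lay on opposite sides of the control. The gene rose 3.16-fold in EZH2i, a log2 change of 1.66 with a counting interval of 1.58 to 1.74. In CDK2i its log2 change of -0.83 (-0.94 to -0.72) did not reach the fold threshold. TGFB2 spans 218518678 to 218617961 on chromosome 1 and is a long transcript of low GC content, at 5868 bases and 42.2% GC. Changes in the EZH2i library ran with both properties across genes, with a Spearman correlation of -0.58 with GC content and 0.49 with length over 9449 genes, which are not independent replicates. With this trend removed the log2 change of TGFB2 in EZH2i was 0.95 and no longer passed the threshold.

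INHBA encodes the βA subunit that forms activin A. It was at 37.8, 25.7 and 35.8 FPKM in the vehicle, CDK2i and EZH2i tumors, the strongest of the 6 ligand genes in the vehicle tumor. Neither change passed the thresholds, with log2 changes of -0.56 (-0.62 to -0.50) in CDK2i and -0.08 (-0.14 to -0.02) in EZH2i. The sign in EZH2i was not settled by the processing, since removing the GC and length trend gave -0.87 and scaling the libraries to the same summed FPKM gave 0.16. The antisense gene INHBA-AS1 was at 0.159, 0.191 and 0.456 FPKM, far below INHBA itself.

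BMP2 and BMP4 encode closely related BMPs that signal through the same receptors. BMP2 (chromosome 20, 6748333 to 6760893) was at 13.9, 14.9 and 45.1 FPKM in the vehicle, CDK2i and EZH2i tumors. The vehicle and CDK2i values lay together, and the EZH2i value stood 3.25-fold above vehicle, a log2 change of 1.70 (1.59 to 1.81). In EZH2i 1.10% of the expressed genes had a more positive change. With the trend of GC content and length removed the change was 1.48. In CDK2i it was 0.10, with a counting interval of -0.04 to 0.23 that holds 0.

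BMP4 (chromosome 14, 54416454 to 54425479) was at 8.52, 2.07 and 11.7 FPKM in the vehicle, CDK2i and EZH2i tumors. The gene fell 4.11-fold in CDK2i, from about 442 to about 123 fragments, a log2 change of -2.04 (-2.34 to -1.75). In EZH2i its log2 change was 0.46 (0.28 to 0.63). The vehicle level of BMP4 lay just above the expression minimum, so a minimum of log2 FPKM 5 leaves this gene out.

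BMP7, a BMP with a separate receptor preference, was all but silent. It was at 0.119, 0.104 and 0.0427 FPKM in the vehicle, CDK2i and EZH2i tumors, values whose ratios fit 8, 8 and 3 fragments. Its log2 changes of -0.19 (-1.80 to 1.42) and -1.48 (-4.03 to 0.58) were not distinguishable from 0 at this depth.

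**Figure D2:**
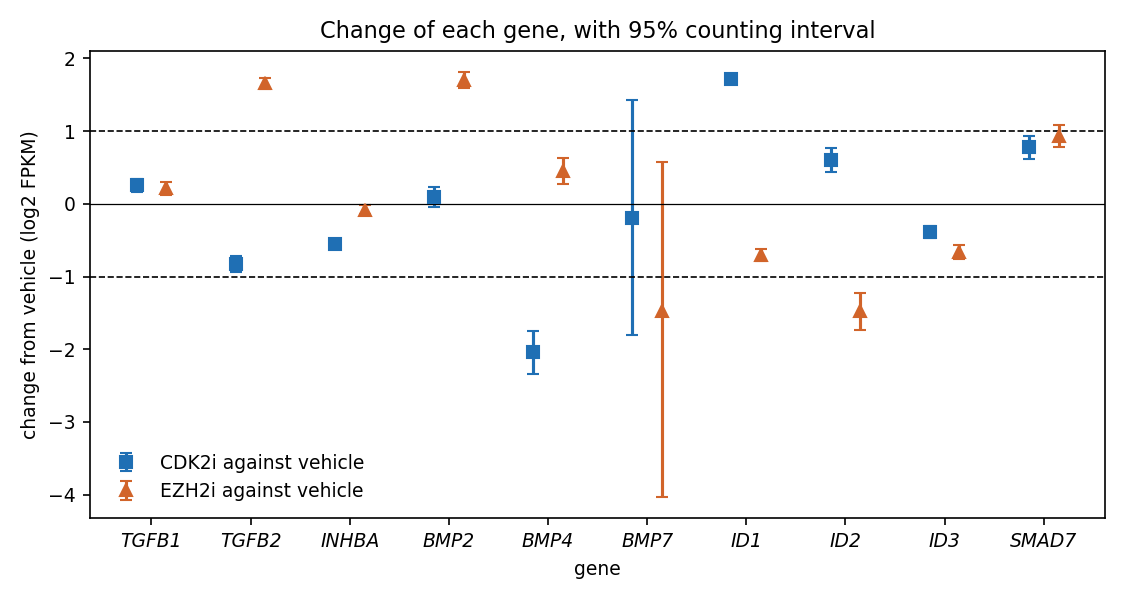
Change from the vehicle tumor in log2 FPKM (vertical axis) of the 10 genes (horizontal axis) in CDK2i and EZH2i, with bars for the 95% counting interval and dashed lines at the fold threshold. ID1 lies above the upper line in CDK2i at 1.72 and TGFB2 and BMP2 in EZH2i at 1.66 and 1.70, while BMP4 in CDK2i and ID2 in EZH2i lie below the lower line.

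ID1, ID2 and ID3 encode small proteins with a helix-loop-helix region and no DNA-binding region of their own. The 250 bases before the RefSeq start of each gene are shown because the 3 genes, known to answer to the same signal, had different patterns here. They come from GRCh38 and not from the GRCh37 build of the expression values, at chr20:31605039-31605288 on the plus strand for ID1, chr2:8681806-8682055 on the plus strand for ID2 and chr1:23559502-23559751 on the minus strand for ID3. Promoters were found for 8 of the 10 genes. Capitals mark 4 short motifs, each on either strand. They are the TATA box letters TATAA, the promoter element CCAAT, the short SMAD-binding sequence CAGAC and the E-box CANNTG that bHLH proteins bind. TATAA and the CCAAT element were chosen after the sequences had been read.
ID1: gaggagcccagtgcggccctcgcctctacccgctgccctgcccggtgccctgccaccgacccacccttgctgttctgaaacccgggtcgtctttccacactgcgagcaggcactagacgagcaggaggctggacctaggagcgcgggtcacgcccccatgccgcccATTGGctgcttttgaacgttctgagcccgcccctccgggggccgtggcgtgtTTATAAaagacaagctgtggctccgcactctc
ID2: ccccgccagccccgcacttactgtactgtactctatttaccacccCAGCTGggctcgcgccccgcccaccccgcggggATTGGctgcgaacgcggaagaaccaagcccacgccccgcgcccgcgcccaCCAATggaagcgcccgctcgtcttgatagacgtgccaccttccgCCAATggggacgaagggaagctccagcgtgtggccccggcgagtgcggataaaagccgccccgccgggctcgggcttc
ID3: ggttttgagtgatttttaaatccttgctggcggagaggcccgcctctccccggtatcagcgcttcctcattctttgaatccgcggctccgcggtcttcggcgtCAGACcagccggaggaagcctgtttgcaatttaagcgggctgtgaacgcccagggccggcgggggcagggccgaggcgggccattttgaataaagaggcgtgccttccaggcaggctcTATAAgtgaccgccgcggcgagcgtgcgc
The ID1 window holds TATAA on both strands, overlapping, at 31 and 32 bases before the start, and 1 CCAAT. ID2 has 3 CCAAT matches and 1 E-box, and ID3 has 1 TATAA at 29 bases before the start and 1 CAGAC at 147. A further SMAD sequence that was searched, GGCGCC, matched in none of the 3 windows. Only these 250 bases were searched, so the absence of a match says nothing about sequence farther from the start. Of 34788 distinct promoter windows of this length, 19.0% hold TATAA and 32.0% hold CCAAT. The SMAD-binding CAGAC occurs in 38.01%, the GC-rich GGCGCC in 16.4% and the E-box CANNTG in 61.8%. A match is a description of the letters and not evidence of a bound site.

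ID1 (chromosome 20 of GRCh37, 30193086 to 30194318) was the strongest of the 10 genes in each tumor, at 139, 459 and 85.6 FPKM in the vehicle, CDK2i and EZH2i tumors. It rose 3.29-fold in CDK2i, a log2 change of 1.72 (1.66 to 1.78), and 0.79% of the expressed genes had a more positive change. In EZH2i it lay below vehicle by a log2 change of -0.70 (-0.79 to -0.62), which did not pass the thresholds and was -0.24 with the GC and length trend removed. The treated tumors thus differed by 5.36-fold in ID1, a log2 difference of -2.42 for EZH2i minus CDK2i (-2.49 to -2.35). In the same CDK2i library a list of 16 immediate early genes, which respond quickly to many signals, had 13 of 15 members at the expression minimum higher past both thresholds and none lower, against 3.27% and 8.07% of all genes. Their summed level was 415, 3500 and 343 FPKM in the vehicle, CDK2i and EZH2i tumors. The part of this response in the ID1 level was not tested.

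ID2 (chromosome 2, 8818975 to 8824591) was at 13.1, 19.8 and 4.70 FPKM in the vehicle, CDK2i and EZH2i tumors. As for ID1, the CDK2i value was the highest and the EZH2i value the lowest. It fell 2.78-fold in EZH2i, a log2 change of -1.48 (-1.73 to -1.23), and the change was -1.65 with the GC and length trend removed. In CDK2i the log2 change of 0.60 (0.44 to 0.77) stayed below the threshold.

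ID3 (chromosome 1, 23884417 to 23885992) was the second strongest of the 10 genes in each tumor, at 95.1, 72.8 and 60.1 FPKM in the vehicle, CDK2i and EZH2i tumors. Both treated tumors lay below vehicle, with log2 changes of -0.39 (-0.47 to -0.30) and -0.66 (-0.76 to -0.57), and neither passed the thresholds. With the GC and length trend removed these changes were -0.14 and -0.23, outside those counting intervals. Unlike ID1, it was not higher in CDK2i. The 3 ID genes lay below vehicle in EZH2i under every scaling tried, but ID2 alone passed both thresholds there. Once the trend was removed ID2 was at -1.65 in EZH2i, while ID1 was at -0.24 and ID3 at -0.23.

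Ratios of 2 genes within a library do not depend on how libraries are scaled to each other, but they do depend on the GC and length trend. The ratio of ID1 to ID3 was 1.47 in vehicle (counting interval 1.39 to 1.55), 6.30 in CDK2i (6.01 to 6.61) and 1.42 in EZH2i (1.33 to 1.52). The vehicle and EZH2i intervals overlap, and CDK2i stands apart from both. The ratio of ID1 to ID2 was 10.7 in vehicle (9.67 to 11.8), 23.1 in CDK2i (21.6 to 24.8) and 18.2 in EZH2i (15.6 to 21.33), where the ID2 value was at its lowest. With the trend removed the ID1 to ID2 ratio was 22.75 in CDK2i and 28.3 in EZH2i, the reverse order. Among ligands, TGFB2 stood at 0.527 of TGFB1 in vehicle, 0.249 in CDK2i and 1.44 in EZH2i, so as deposited it exceeded TGFB1 in the EZH2i tumor only. With the GC and length trend removed that EZH2i ratio was 0.726, below 1. BMP2 exceeded BMP4 in each tumor, 1.63-fold in vehicle, 7.17-fold in CDK2i and 3.86-fold in EZH2i. In CDK2i this came with a lower BMP4 value and in EZH2i with a higher BMP2 value.

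**Figure D3:**
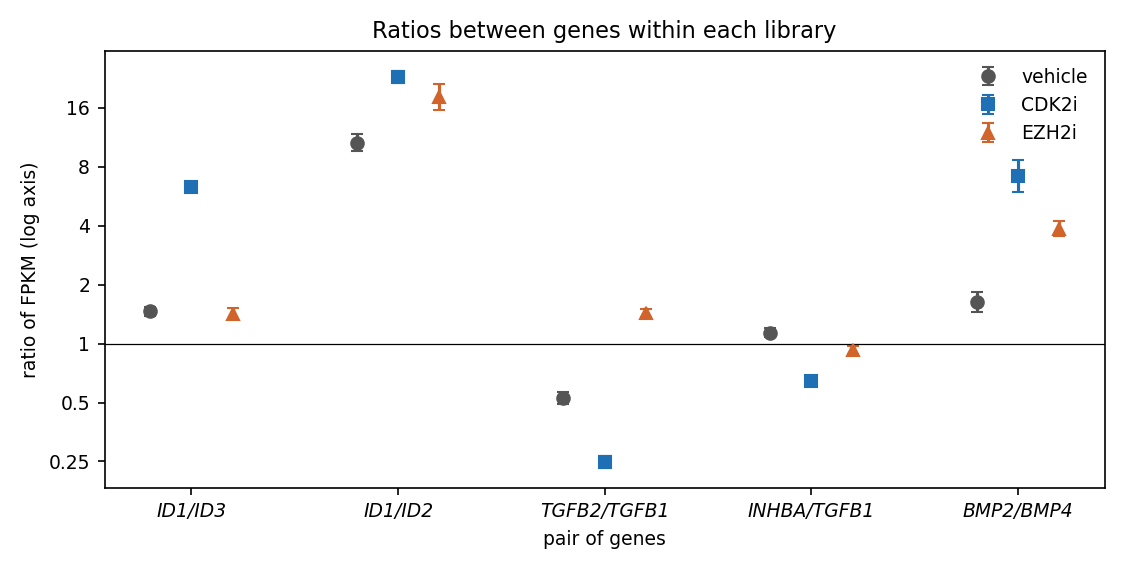
Ratio of FPKM (vertical log axis) for 5 pairs of genes (horizontal axis) within the vehicle, CDK2i and EZH2i libraries, with bars for the 95% counting interval. ID1/ID3 is near 1.4 in vehicle and EZH2i and 6.30 in CDK2i, and TGFB2/TGFB1 as deposited is above 1 in EZH2i, at 1.44, where it was 0.726 with the GC and length trend removed.

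SMAD7, the inhibitory SMAD, was at 7.74, 13.3 and 14.8 FPKM in the vehicle, CDK2i and EZH2i tumors. Both treated tumors were above vehicle and close to each other, with log2 changes of 0.78 (0.62 to 0.93) and 0.93 (0.78 to 1.09). Neither change passed the fold threshold, and with equal summed FPKM the EZH2i change of 1.17 did.

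By level, ID1 and ID3 led in each tumor and BMP7 was last. Below them came INHBA in vehicle, TGFB1 in CDK2i and, as deposited, TGFB2 in EZH2i. TGFB2 held rank 5 of 10 in vehicle, rank 8 in CDK2i and rank 3 in EZH2i. With the GC and length trend removed it held rank 5 in EZH2i, as in vehicle, and rank 8 in CDK2i. The neighbors BMP2 and ID2, and BMP4 and SMAD7, did not differ beyond their Poisson intervals in vehicle, nor did BMP2 and SMAD7 in CDK2i. In EZH2i no neighboring pair had overlapping intervals.

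As a stand-in for replicate error, the SD of the difference between the treated tumors was taken over the 200 genes nearest in mean level, a spread that holds drug effects as well as noise. It was 0.66 to 1.02 for 9 of the genes and 1.72 for BMP7. The 5 changes past the thresholds all exceeded it, but the log2 fold threshold of 1 fixed this wherever the spread was below 1. Of the 5, only BMP4 in CDK2i, at -2.04, had a spread above 1, of 1.02. TGFB2 in CDK2i and SMAD7 in EZH2i, below the fold threshold, also exceeded their spreads of 0.69 and 0.78, while SMAD7 in CDK2i lay at its spread. The other changes were within theirs.

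**Figure D4:**
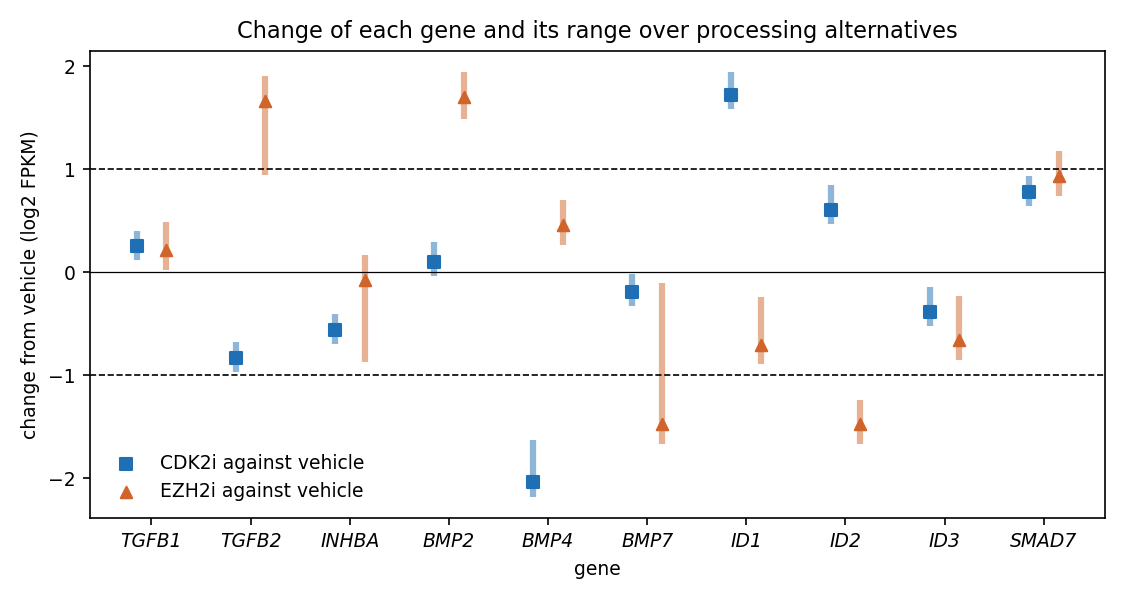
Change from vehicle in log2 FPKM (vertical axis) of the 10 genes (horizontal axis) in CDK2i and EZH2i (points), with bars from the lowest to the highest value over 2 pseudocounts, 3 other scalings and removal of the GC and length trend. The bar of TGFB2 in EZH2i reaches down to 0.95, and those of INHBA in EZH2i and BMP2 in CDK2i cross 0.

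The other genes of the pathway were taken from lists by role, in which SKIL, PMEPA1, TGIF1, LTBP2, SMAD6 and BAMBI stand on 2 lists each. Of 22 other ligand genes with a value, 3 reached the expression minimum. None passed in CDK2i, against 3.27% higher and 8.07% lower of all genes. In EZH2i, where 8.93% of all genes were higher and 4.42% lower, none rose and 2 fell. These were INHBB, which encodes the activin βB subunit, at 68.9, 85.0 and 19.1 FPKM in the vehicle, CDK2i and EZH2i tumors, and INHA, the inhibin α subunit, at 18.6, 18.01 and 6.30. The log2 changes in EZH2i were -1.85 (-1.95 to -1.75) for INHBB and -1.56 (-1.81 to -1.31) for INHA. Removing the GC and length trend gave -1.85 and -1.04.

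Receptors were mostly weakly expressed. Of 14 receptor genes, 3 reached the minimum in CDK2i and 4 in EZH2i. Of these, 1 was lower in CDK2i, against 8.07% of all genes, and 1 was higher in EZH2i, against 8.93%. The activin type I receptor gene ACVR1B fell in CDK2i, from 10.98 to 5.25 FPKM with a log2 change of -1.07 (-1.22 to -0.92). That call was lost with the GC and length trend removed, at -0.90, and with changes centred on the median gene, at -0.95. TGFBR1, the type I receptor of TGF-β, rose in EZH2i from 6.86 to 16.4 FPKM, a log2 change of 1.26 that was 0.44 with the GC and length trend removed. The type II receptor gene TGFBR2 had log2 changes of 0.34 (CDK2i) and 1.10 (EZH2i, 0.62 with the trend removed) but stayed below the expression minimum. BMPR1A and BMPR2, receptors for BMPs, were also below it. The log2 changes under CDK2i and EZH2i were -0.41 and 0.65 for BMPR1A, and 0.68 and 1.05 for BMPR2. With the trend removed the EZH2i changes were -0.16 for BMPR1A and 0.14 for BMPR2. Over 8 expressed receptor genes changes had a median of -0.01 under CDK2i and 0.58 under EZH2i, the latter 0.18 with the trend removed.

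Of 7 other SMAD genes none reached the minimum in CDK2i and 4 did in EZH2i. Of these 4, 1 was higher in EZH2i, against 8.93% of all genes, and none was lower, against 4.42%. SMAD3, which carries TGF-β and activin signals, rose in EZH2i from 4.95 to 10.2 FPKM, a log2 change of 1.05 (0.93 to 1.17) that was 0.61 with the trend removed. SMAD4, the common partner, had a log2 change of -0.59 under CDK2i and of 0.82 under EZH2i. With the trend removed these were -0.55 and -0.01. The inhibitory SMAD6, a BMP target, was near 2 FPKM throughout, with log2 changes of -0.19 and -0.29. The median over the 4 expressed genes of this list was 0.92 in EZH2i, against 0.19 over all genes, and 0.17 with the trend removed.

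Genes that store and activate TGF-β had 8 of 11 members at the minimum. ITGB8, an integrin subunit that helps to release active TGF-β, rose in both treated tumors, from 3.50 FPKM in vehicle to 8.09 in CDK2i and 11.04 in EZH2i. In EZH2i LTBP1, a latent TGF-β binding protein, ITGAV, the integrin αV partner of ITGB8, and THBS1, thrombospondin-1, rose as well, by log2 changes of 1.48, 1.37 and 1.07. Thus 1 of 8 was higher in CDK2i, against 3.27% of all genes, and 4 of 8 in EZH2i, against 8.93%. None was lower, against 8.07% and 4.42%. Of these 4 calls in EZH2i 1 was left once the trend was removed. With the trend removed LTBP1 stayed at 1.05, while ITGB8, ITGAV and THBS1 were at 0.78, 0.52 and 0.40 in EZH2i. ITGB8 in CDK2i was at 1.21, and at 1.23 with the trend removed. Its level in CDK2i, log2 FPKM 3.016, lay barely above the expression minimum of 3, so that call rests on a narrow margin.

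Among antagonists, SOSTDC1, a secreted inhibitor of BMP and WNT ligands, had the largest change of any pathway gene listed here at the expression minimum in EZH2i. It was at 70.2, 51.2 and 7.32 FPKM in the vehicle, CDK2i and EZH2i tumors, a log2 change of -3.26 (-3.43 to -3.09) in EZH2i and -0.45 in CDK2i. FSTL1 and TWSG1, modulators of BMP signals, rose in EZH2i by 1.21 and 1.03 and were at 0.52 and 0.33 with the trend removed. No antagonist passed in CDK2i, of 6 that reached the minimum, against 3.27% higher and 8.07% lower of all genes. In EZH2i 2 of 7 were higher, against 8.93% of all genes, and 1 was lower, against 4.42%. Of 11 intracellular regulators, 6 reached the minimum in CDK2i and 8 in EZH2i. The SMAD corepressor gene SKIL alone passed, 1 of 8 in EZH2i, against 8.93% of all genes higher there. Its log2 change of 1.13 in EZH2i was 0.23 with the trend removed. As deposited all 11 lay above vehicle in EZH2i and 6 in CDK2i. With the trend removed 8 of 11 lay above it in EZH2i, and the median there was 0.23 where it had been 0.66.

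Genes known to respond to TGF-β or activin formed a further list. Of 12 TGF-β response genes at the minimum in CDK2i, 3 rose and none fell, against 3.27% and 8.07% of all genes, with LIF at a log2 change of 3.26, KLF10 at 2.89 and BHLHE40 at 1.80. LIF encodes a cytokine of the IL-6 family, and KLF10 and BHLHE40 encode transcription factors. In EZH2i 2 of 13 rose, PTHLH by 1.33 and SKIL by 1.13, and none fell, against 8.93% and 4.42% of all genes. The median over 16 expressed genes was 0.56 in CDK2i and 0.54 in EZH2i, against -0.11 and 0.19 over all genes. With the trend removed it was 0.72 in CDK2i and 0.21 in EZH2i, and SKIL was at 0.23. Many of these genes also answer to other signals, and all 3 that rose in CDK2i did so in the library with high immediate early genes. The part of that response in their values was not tested.

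Of 4 BMP response genes at the minimum, 2 fell in each treated tumor and none rose. Of all genes 8.07% fell and 3.27% rose in CDK2i, and 4.42% fell and 8.93% rose in EZH2i. Whether the 2 genes that fell followed BMP signals was not tested. These 2 were DLX5, a homeobox gene, at 9.63, 1.33 and 3.52 FPKM in the vehicle, CDK2i and EZH2i tumors, and GATA3, a luminal transcription factor gene, at 16.5, 3.75 and 6.66. DLX5 changed by -2.86 (-3.35 to -2.39) in CDK2i and -1.45 (-1.79 to -1.13) in EZH2i, and GATA3 by -2.14 and -1.31. As deposited all 6 expressed members lay below vehicle in both, with medians of -1.09 and -0.38. With the trend removed BAMBI, a pseudoreceptor gene, was at 0.08 in CDK2i, the other 5 stayed below vehicle there, and the medians were -0.90 and -0.98. The 2 comparisons share the vehicle library, so their common direction is not independent. The pathway targets ID1, ID2, ID3 and SMAD7 are not on this list. In CDK2i ID1, ID2 and SMAD7 went the other way, at 1.72, 0.60 and 0.78, with ID1 alone past both thresholds, while ID3 was at -0.39. In EZH2i SMAD7 lay above vehicle, at 0.93, and ID1, ID2 and ID3 below it.

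**Figure D5:**
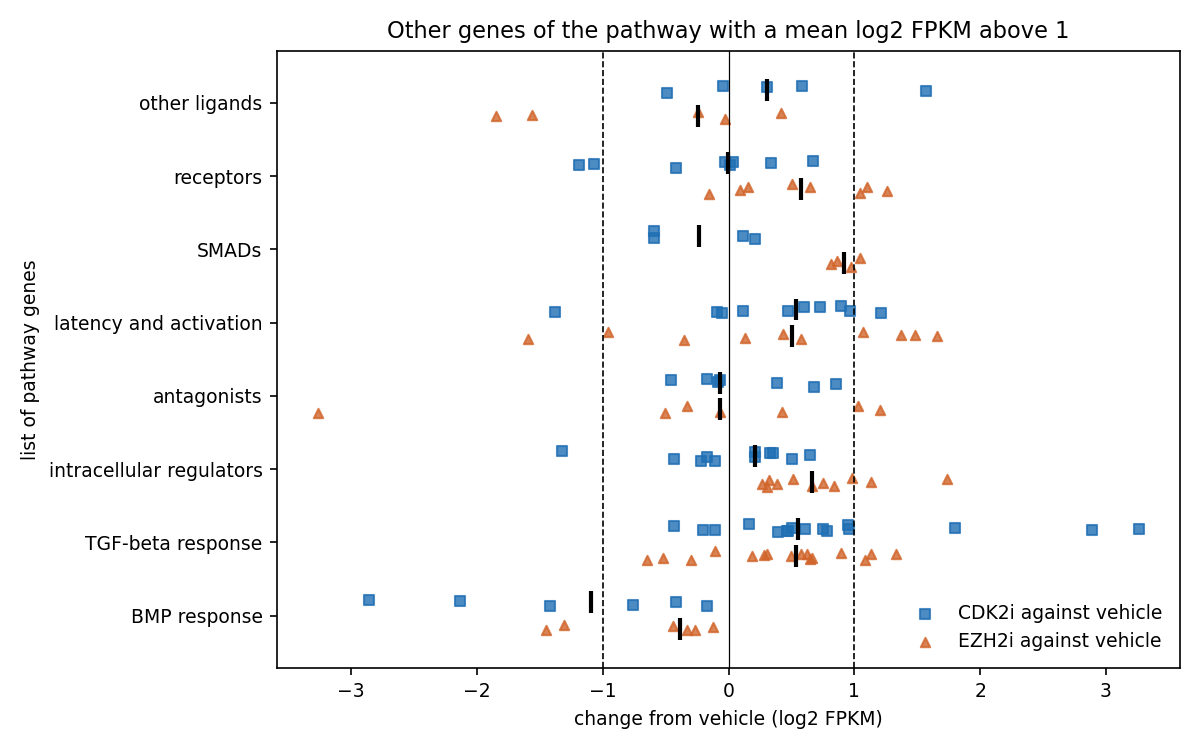
Change from vehicle in log2 FPKM (horizontal axis) of the expressed genes of 8 pathway lists (vertical axis) in CDK2i and EZH2i, 1 point per gene, with black bars at the median and dashed lines at the fold threshold. As deposited, the 6 BMP response genes all lie below 0, and the 4 SMAD genes lie between 0.82 and 1.05 in EZH2i. With the GC and length trend removed the median of those SMAD genes in EZH2i was 0.17.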

How the data were processed

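RNAseq was measured in 3 libraries of SUM-149 xenograft tumors, 1 each for vehicle, CDK2i and EZH2i, and every column was assigned by its label. Per the labels and the study's methods, total RNA was isolated with the RNeasy Mini Kit and sequenced by NOVOGENE with GRCh37/hg19 as reference. The submitters' processing notes name CASAVA and STAR. The counting tool and all versions are not given in the sources used here. The authors deposited log2 FPKM per gene symbol, with -9 where FPKM appears to be 0. No sample column was left unused.

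Differences of log2 FPKM from vehicle were computed without a pseudocount. The fold and expression thresholds are the study's, and its limma p-value was not repeated because 1 library per condition gives no error. Positions and lengths came from GENCODE 44 on GRCh37, to which 10 of 10 genes matched by symbol. Depth was the number of fragments that placed most low values within 0.2% of 1, 2 or 3 whole fragments. Fragment numbers are approximate, since the authors' gene lengths were not known. The GC and length trend was a polynomial of degree 3 in each, fitted over expressed genes other than ribosomal protein genes. Both properties were known for 85.8% of expressed genes. The genes, lists and thresholds were chosen with earlier results of these data known. The genes named are all 10, a fixed set of 7 receptors and SMADs, the leading markers, and from each pathway list those past both thresholds, at most 4 per comparison. One gene of the TGF-β response list is not reported here and was left out of its counts. Calculations were tested on simulated data. Python 3.11.15, numpy 2.4.6, pandas 2.3.3, scipy 1.17.1 and matplotlib 3.10.9 were used.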

Additional observations from a re-analysis of the deposited data

How the results depend on the processing

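Alternative fold thresholds, expression minimums, pseudocounts and scalings and the removal of the GC and length trend were tried for the 10 genes. A fold of 1.5 passed 5 genes for CDK2i and 6 for EZH2i, where a fold of 2 passed 2 and 3. The share of all genes past a fold of 1.5 was not computed, so these counts only describe how the calls moved. With a minimum of log2 FPKM 5, 1 passed in CDK2i (ID1), since BMP4 lies below it. In the remaining settings 2 passed in CDK2i and 2 to 4 in EZH2i. ID1 and BMP4 in CDK2i and BMP2 in EZH2i passed with a fold of 3 and under each scaling. TGFB2 in EZH2i was lost with the trend removed (0.95), ID2 in EZH2i with a fold of 3 or a minimum of log2 FPKM 5, SMAD7 in EZH2i was gained with equal summed FPKM (1.17), and BMP7 in EZH2i with no expression minimum. Of the pathway genes named, SMAD3, THBS1, TWSG1 and SKIL in EZH2i and ACVR1B in CDK2i lost their call both with the trend removed and with changes centred on the median gene. Among the 10 genes no change past the thresholds turned its direction. Of 120 changes recomputed with another pseudocount, scaling or the trend removed, 73 stayed within the counting interval and 47 did not.

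The balance of all genes depended on scaling. The share of changed genes that were higher was 28.9% in CDK2i and 66.9% in EZH2i as deposited, 41.1% and 38.8% centred on the median gene, 46.1% and 88.9% with equal summed FPKM, and 17.8% and 72.7% with equal sums that leave out ribosomal protein and mitochondrial genes. In EZH2i 1441 genes were higher and 180 lower with equal summed FPKM, against 662 and 328. No paired analysis was possible because each condition had 1 library, and no library was left out for the same reason. Depth limited BMP7 most, at 8, 8 and 3 fragments.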

Other observations

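Genes that act beside the ID proteins were looked at as a list of 5 with a value, of which 2 reached the expression minimum. HES1, a bHLH repressor that answers to Notch and to other signals, was at 80.9, 418 and 64.6 FPKM in the vehicle, CDK2i and EZH2i tumors. The log2 change of HES1 was 2.37 for CDK2i (2.31 to 2.43) and -0.33 for EZH2i (-0.41 to -0.25), which put the treated tumors in the order that ID1 had, over 3 libraries only. That order is not particular to these genes. Of 15 immediate early genes at the minimum, 14 were lower in EZH2i than in CDK2i past both thresholds, against 6.53% of all genes.

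Of 10 proliferation genes 5 rose in EZH2i and none fell, against 8.93% and 4.42% of all genes. The summed level of the list was 253, 219 and 427 FPKM in the vehicle, CDK2i and EZH2i tumors. In CDK2i 1 of 9 at the minimum fell and none rose, against 8.07% and 3.27% of all genes. This was AURKA, at -2.01, and at -1.78 once the GC and length trend was removed. MKI67, a marker of dividing cells, changed by 1.51 in EZH2i and -0.47 in CDK2i. With the GC and length trend removed the MKI67 change in EZH2i was 0.88 and 0 of the 5 calls in EZH2i were left. The relation of these genes to TGFB2, BMP2 or ID2 was not tested.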
